A study of Rattus norvegicus with 28 samples.

Results

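The neurofilament genes Nefm, Nefl and Nefh and the microtubule-associated protein gene Map1b were examined in RNA-seq of rat dorsal root ganglia (DRG). These 4 genes, of 32754 in the count table, were chosen by their read counts, which are among the 5 highest of both libraries. Their high places are therefore a description and carry no test. The remaining gene of the 5 had no symbol at hand and is not among them. The DRG holds the cell bodies of peripheral sensory neurons together with their glia, and each library came from the pooled ipsilateral L4-L6 ganglia of 1 male Sprague-Dawley rat, 12 weeks old, 48 h after complete Freund's adjuvant (CFA), an emulsion that inflames the tissue, was injected into the hind paw. Both libraries thus belong to the CFA group. Naïve and nerve-injured (CCI) libraries of RNA were not analysed here, and nothing below compares inflamed with uninjured ganglia.

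Neurofilaments are the intermediate filaments of axons. They are heteropolymers of a light, a medium and a heavy subunit, encoded by Nefl, Nefm and Nefh, to which α-internexin (Ina) or peripherin (Prph) can be added. The light subunit forms the filament core, and the long tails of the medium and heavy subunits project from it and carry many phosphorylation sites. Neurofilament content goes with the calibre of myelinated axons, and the heavy subunit is widely used to mark the large myelinated neurons of the ganglion. Map1b encodes a precursor that is cleaved into a heavy and a light chain which bind microtubules, and it is known for its part in axon growth.

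CFA replicate 1 held 10520647 gene counts, and CFA replicate 2 held 28825688, which is 2.74 times as many. Counts were scaled to these totals as CPM, the share of a gene in its library, so that the 11574 CPM of Nefm in replicate 1 stand for 1.16% of all counts. Read counts grow with the length of a transcript, and transcript lengths were not used here, so every order and ratio between genes below is one of reads and not of RNA molecules. In a whole ganglion, fewer cells of a type and less RNA per cell cannot be told apart.

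Nefm, the medium subunit, had the most reads of all genes in both libraries. It received 121766 counts in replicate 1 and 333970 in replicate 2, which are 11574 and 11586 CPM (11579.9 ± 8.37 CPM, SD, n = 2). Scaled to their totals, the libraries lay 0.102% apart, and replicate 2 was 1.19% higher when scaled by TMM and 1.28% higher when scaled by DESeq2 size factors, which both set the libraries to a common level over most genes.

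Nefl, the light subunit, held the second place in both libraries. Its 100590 and 282214 counts gave 9561 and 9790.4 CPM (9676 ± 162 CPM, n = 2). Replicate 2 was 2.40% above replicate 1.

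Nefh, the heavy subunit, held the fifth place in both libraries and spread more widely. Its 75265 and 238152 counts gave 7154 and 8262 CPM (7708 ± 783 CPM, n = 2). Replicate 2 was 15.5% above replicate 1.

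Map1b, the microtubule-associated protein gene, held place 4 in replicate 1 and place 3 in replicate 2. Its 82024 and 265817 counts gave 7796 and 9222 CPM (8509 ± 1008 CPM, n = 2). At 18.3%, this was the widest gap between the libraries among the 4 genes.

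Between Nefl and Nefh stood 1 further gene, ENSRNOG00000003171, for which no symbol was at hand. It had 8398 CPM in replicate 1 and 8735 CPM in replicate 2 and changed places with Map1b between the libraries. The order of reads was therefore settled only in part. Nefm lay above Nefl, and Nefl above the unnamed gene, in both libraries and without overlap of their ranges, whereas the range of Map1b overlapped that of the unnamed gene and that of Nefh, although Map1b had more reads than Nefh in both libraries. The first gene after the 5 was Scd2, a fatty acid desaturase gene, with 6223 and 5249 CPM, and it did not overlap with Nefh, the last of the 4 genes.

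**Figure D1:**
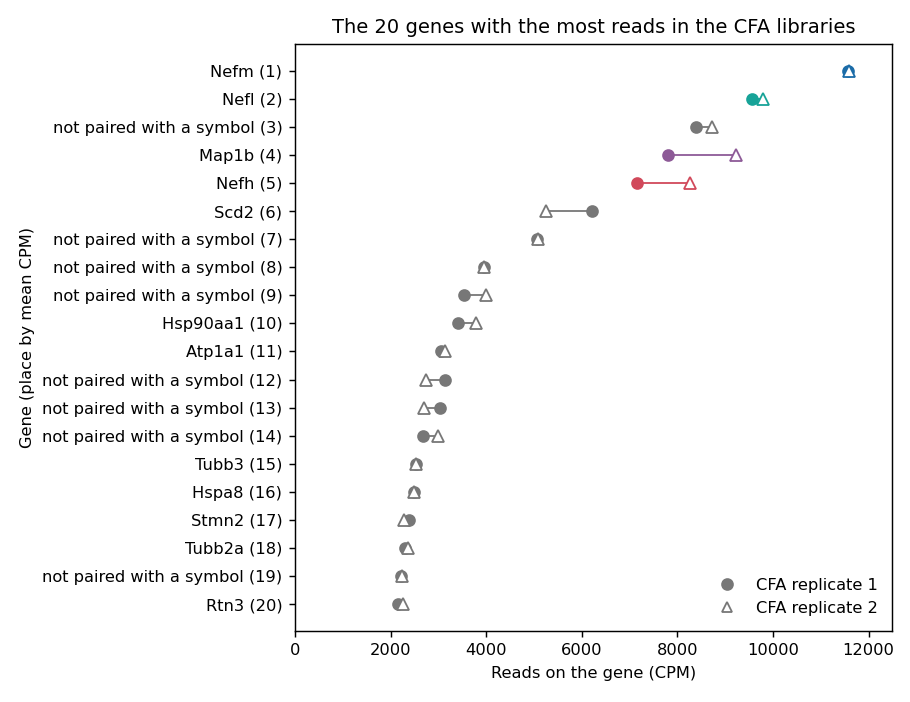
Reads per gene in CPM (horizontal axis, from 0) for the 20 genes with the highest mean, with filled circles for CFA replicate 1, open triangles for CFA replicate 2 and a line joining them. Nefm, Nefl, Map1b and Nefh are in colour, and the triangles of Map1b and Nefh stand apart from their circles while those of Nefm and Nefl nearly cover them.

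The 4 genes together took 3.61% of all counts in replicate 1 and 3.89% in replicate 2. The 95% Wilson intervals, which cover counting error only, ran from 3.60 to 3.62% and from 3.88 to 3.89%. The 3 neurofilament genes alone took 2.83% and 2.96%, and the 20 genes with the most reads 9.27% and 9.54%. Set against the rest of the ganglion, the 4 genes had as many reads as the 10006 lowest genes of replicate 1 combined, which are 52.2% of the 19161 genes with a count there. In replicate 2 they matched the 11585 lowest of 20509 genes. The median gene with a count had 12.5 CPM in replicate 1 and 9.92 CPM in replicate 2.

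Within the neurofilament reads, the medium subunit held the largest part and the heavy subunit the smallest. Nefm took 40.9% of the reads of the 3 genes in replicate 1 and 39.1% in replicate 2. Nefl took 33.8% and 33.0%. Nefh took 25.3% (95% Wilson interval 25.1 to 25.4%) in replicate 1 and 27.9% (27.8 to 28.0%) in replicate 2. The order of the subunits was the same in both rats, and the share of Nefh was higher, and those of Nefm and Nefl lower, in replicate 2.

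Ratios of reads within a library do not depend on how the libraries are scaled. There were 0.826 Nefl reads for each Nefm read in replicate 1 and 0.845 in replicate 2 (0.836 ± 0.0134, SD, n = 2). The ratio of Map1b to Nefh was 1.09 and 1.12 (1.10 ± 0.0186). These 2 ratios were 2.29% and 2.42% higher in replicate 2.

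The ratios across these pairs moved further. Nefh to Nefm was 0.618 in replicate 1 and 0.713 in replicate 2 (0.666 ± 0.0672), and Nefh to Nefl was 0.748 and 0.844 (0.796 ± 0.0676). Map1b to Nefm was 0.674 and 0.796 (0.735 ± 0.0865). Map1b to Nefl was 0.815 and 0.942 (0.879 ± 0.0894). All 4 were higher in replicate 2, by 12.8% to 18.2%. The ratios of Nefl to Nefm and of Map1b to Nefh thus stayed close, while Nefh and Map1b were higher in replicate 2 relative to both Nefm and Nefl. For each of the 6 ratios the exact 95% counting intervals of the libraries did not overlap, but these intervals leave out the spread between rats, which 2 libraries measure poorly.

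**Figure D2:**
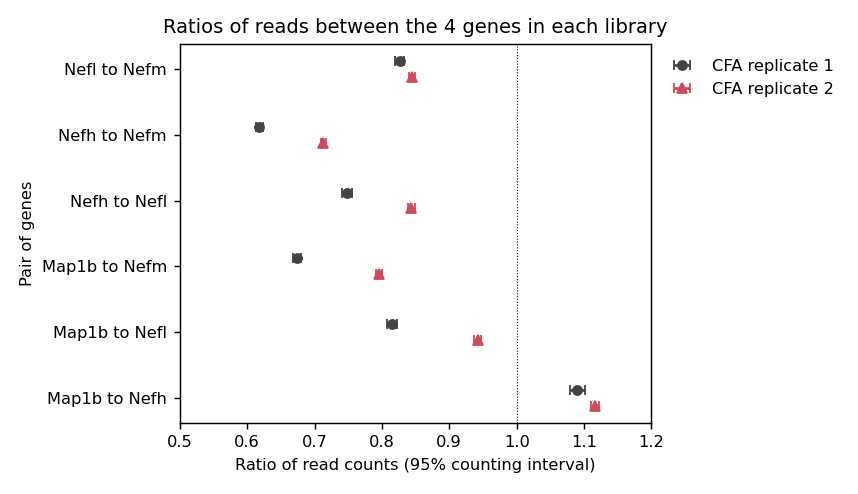
Ratio of read counts (horizontal axis, which begins at 0.5) for each pair of the 4 genes, with black circles for CFA replicate 1, red triangles for CFA replicate 2 and bars for the exact 95% counting interval. The 2 libraries nearly coincide for Nefl to Nefm (0.826 and 0.845) and for Map1b to Nefh (1.09 and 1.12), and the other 4 pairs are shifted to higher ratios in replicate 2.

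The agreement of the libraries was next set beside that of all genes. The log2 ratio of replicate 2 to replicate 1, on the log2(CPM + 1) scale, was 0.0015 for Nefm, 0.034 for Nefl, 0.21 for Nefh and 0.24 for Map1b. The exact 95% counting interval of the count ratio, on the log2 scale, held 0 for Nefm, from -0.0080 to 0.011, and lay above 0 for Nefl, from 0.024 to 0.045, for Nefh, from 0.20 to 0.22, and for Map1b, from 0.23 to 0.25. The gap of Nefm was thus within counting error by library totals, but not by TMM, where its interval ran from 0.0076 to 0.027, or by size factors, where it ran from 0.0089 to 0.028. The gaps of the other 3 genes were wider than counting error under all 3 scalings. Such intervals compare 2 libraries of 1 group and say nothing of a treatment.

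For comparison, 15115 genes reached 10 or more counts in each library. Their log2 ratios had a median of -0.01 and an SD of 0.22, with -0.40 at the lower and 0.30 at the upper end of the central 90%. The gap was smaller in size than that of Nefh in 73.1% of these genes and smaller than that of Map1b in 78.9%. It was smaller than that of Nefl in 16.3% and smaller than that of Nefm in 0.74%. Genes with many reads spread less, however. For the 90 genes with a mean of at least 1000 CPM the SD was 0.13 and the median size of the log2 ratio 0.07. Counting both directions, 6 of these 90 genes, Map1b among them, had a gap wider than that of Nefh. By the same count, 84 of the 90 had a wider gap than Nefm and 66 a wider gap than Nefl. Ordered by the ratio with its sign, Nefm and Nefl had 45 and 39 genes above them.

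**Figure D3:**
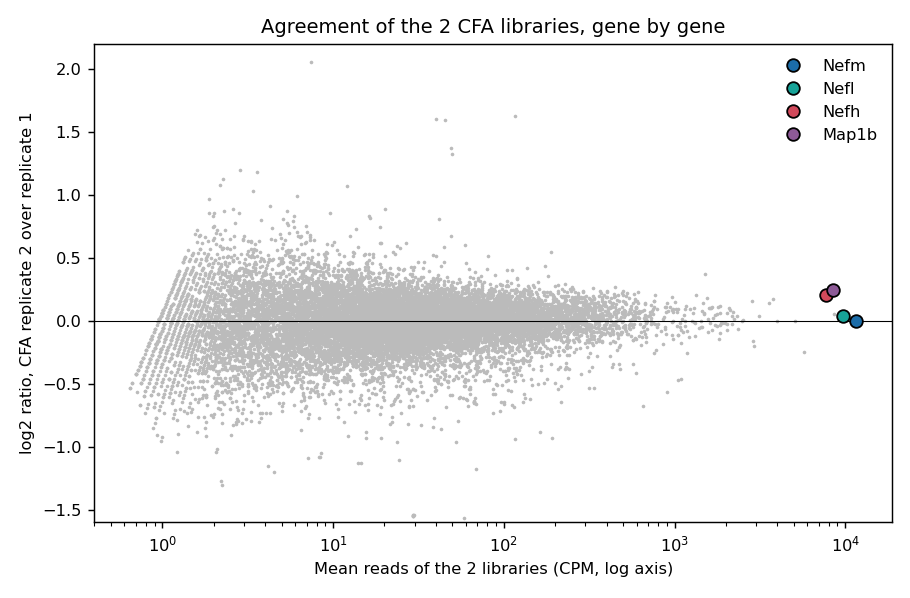
Log2 ratio of CFA replicate 2 to replicate 1 (vertical axis) against the mean of the libraries in CPM (horizontal axis, log scale) for the 15115 genes that reached 10 or more counts in each library, in grey, and the 4 genes in colour. The cloud narrows towards the right, where Nefm and Nefl lie on or near 0 and Nefh and Map1b lie above it at 0.21 and 0.24.

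Ina and Prph, the other filament partners of the neurofilament subunits, differed widely in reads. Prph, the intermediate filament gene of peripheral neurons, had 2037 CPM in replicate 1 and 2006 CPM in replicate 2, a log2 ratio of -0.02, and stood at place 27 of all genes. Ina had 100.1 and 112 CPM, a log2 ratio of 0.16, and stood at place 2075. The 5 neuronal intermediate filament genes summed to 30426 CPM in replicate 1 and 31756 CPM in replicate 2.

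Of 9 further intermediate filament genes, 4 could be paired with a symbol, while Vim, Des, Synm, Lmna and Lmnb2 could not. All 4 had fewer CPM in replicate 2, with a median log2 ratio of -0.39, although Lmnb1 turned to higher by TMM and size factors. By totals, 47.5% of the 15115 genes with 10 or more counts in each library were higher in replicate 2. Nes (nestin) had 225 and 190 CPM, and Gfap, the filament gene of activated glia, 20.6 and 13.9 CPM. Krt10 and the lamin gene Lmnb1 stayed below 4 CPM in both libraries, and the log2 ratio of Lmnb1 was -0.0062.

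Of 11 microtubule-associated protein genes in the list, 7 could be paired with a symbol. Map1b stood far above the other 6 of these in reads. Map1s, Mapt, Map6 and Map7d1 had no symbol match, and their reads are not known here. Map1a, the nearest relative of Map1b, had 2132 and 2195 CPM and a log2 ratio of 0.04. Map7d2 had 858 and 811 CPM, and Map2, best known from dendrites, 545 and 571 CPM. Map4 had 438 and 432 CPM and Map9 153 and 155 CPM, and Map7d3 was the lowest with 2.09 and 1.01 CPM from 22 and 29 counts. Of the 6 genes other than Map1b, 3 were higher and 3 lower in replicate 2, with a median log2 ratio of 0.00, so the gap of Map1b was not shared across the matched genes.

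Tubulins are the subunits of microtubules. Of 14 tubulin genes in the list, 6 had a symbol, and these agreed closely between the libraries. They are genes that the study selected as changed, so they are not a random part of the list. The neuronal β-tubulin gene Tubb3 had 2526 and 2538 CPM, and Tubb2a 2305 and 2360 CPM. Of the 6 tubulin genes with a symbol, 3 were higher and 3 lower in replicate 2, with log2 ratios from -0.09 to 0.05. Reads of tubulin genes with similar sequences can be split in counting, which makes the values of the single genes less certain.

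Genes of axonal transport, axon growth and the axonal membrane were compared in the same way, without a test. Of 14 motor genes, 9 had a symbol, and 7 of these were higher in replicate 2, or all 9 by TMM and size factors, which turned Kif5c and Dync1i2. Their median log2 ratio was 0.06, led by the kinesin-associated gene Kifap3 at 0.21 and the dynein heavy chain gene Dync1h1 at 0.18. Of 6 axon growth and branching genes with a symbol, 5 were higher, with a median of 0.03, the exception being Stmn2, a regulator of microtubule stability, with 2394 and 2283 CPM. Of 11 genes of the axon initial segment, the node and the membrane skeleton, 7 had a symbol, and all 7 were higher under every scaling, with a median of 0.14. The largest of these ratios was 0.22 for Sptb, a β-spectrin gene with 119 and 139 CPM. Cntn1, a contactin gene of the axon surface, had 583 and 643 CPM, a log2 ratio of 0.14. Over the 15115 genes, 47.5% were higher in replicate 2 by library totals, 50.9% by TMM and 51.3% by size factors. By totals, their median was -0.01 and the median size of the log2 ratio was 0.12. Also by totals, 54.4% of the 90 genes with the most reads were higher. Of the 75 genes of all lists, markers included and the 4 genes left out, 60.0% were higher by totals.

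**Figure D4:**
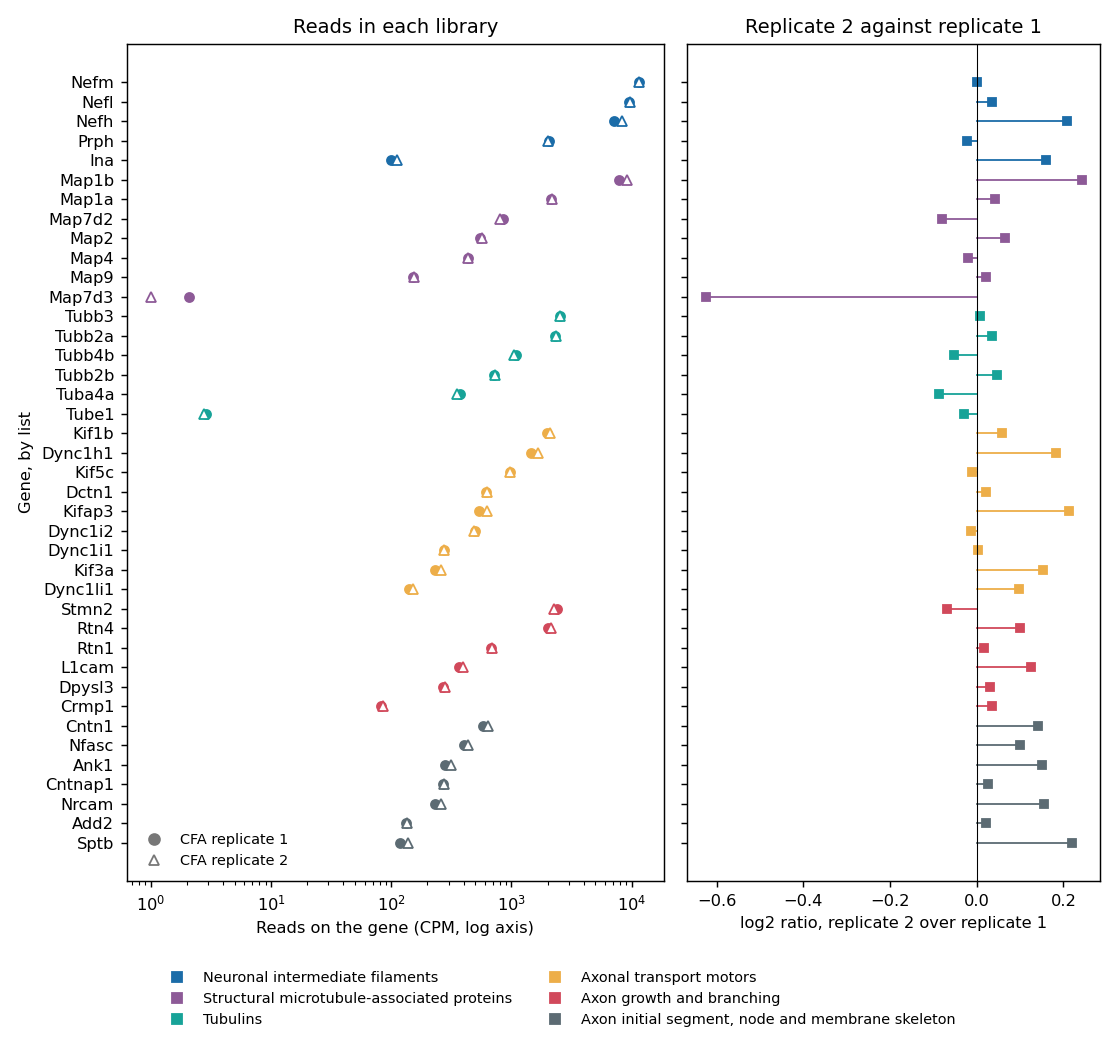
Left, reads in CPM (horizontal axis, log scale) for the cytoskeletal and axonal genes that could be paired with a symbol, by list, with filled circles for CFA replicate 1 and open triangles for CFA replicate 2. Right, the log2 ratio of replicate 2 to replicate 1 for the same genes, with 0.24 for Map1b, 0.21 for Nefh, values between -0.09 and 0.05 for the tubulins and values above 0 for all 7 genes of the axon initial segment, node and membrane skeleton.

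Cell type markers were compared as sums. The 13 of 18 sensory neuron markers with a symbol summed to 9587 CPM in replicate 1 and 9557 CPM in replicate 2. Of these 13 genes 7 were higher and 6 lower in replicate 2, from -0.17 for Calca, a neuropeptide gene, to 0.52 for Trpm8, the cold-sensing channel gene, and their sum was lower there by totals but higher, 9609 against 9535 CPM, by TMM. This list also holds Tubb3 and Prph from the lists above. Ntrk2, Ntrk3 and Pvalb, which mark large-diameter neurons, had no symbol match and were not analysed here. The matched markers include Scn10a and P2rx3, channel genes of nociceptors, with 541 and 578 CPM and with 497 and 462 CPM. The 9 of 12 Schwann cell markers summed to 4144 and 3983 CPM, with Mbp (myelin basic protein) highest. The 4 of 7 satellite glia markers summed to 1230 and 1188 CPM. S100b alone gave 1162 and 1127 CPM of this, so the sum mostly reflects that gene. Fabp7, Glul and Kcnj10 had no symbol match. The 6 fibroblast and vessel markers summed to 1205 and 1142 CPM. The 3 of 6 macrophage and leukocyte markers, Trem2, Lsp1 and Arhgdib, summed to 16.2 and 16.9 CPM. The 3 of 6 skeletal muscle markers, Myh7, Myh6 and Myom2, summed to 29.3 and 33.0 CPM. The macrophage and leukocyte markers Cd68, Csf1r and Ptprc and the muscle markers Des, Ckm and Acta1 had no symbol match. These low sums therefore cannot show how much of these cells was present. The matched neuronal and glial markers had reads in both libraries. Matched markers come from the study's lists of genes changed in both pain models, so their presence was largely fixed beforehand and is no finding. The part of cell make-up and RNA quality in the gaps of Nefh and Map1b was not tested.

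The genes most like each member were sought by the distance between log2(CPM + 1) values over the 2 libraries. The nearest gene to Nefm was Nefl, at a distance of 0.37, and the nearest to Nefh was Map1b, at 0.20. For Map1b and for Nefl the nearest was the unnamed gene ENSRNOG00000003171, at 0.13 and 0.25. With 2 libraries this measure mostly reflects the level.

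In the RefSeq table for GRCr8, an assembly later than the rn6 build of the counts, Nefl and Nefm lie on chromosome 15 with 1 listed gene between them, a pseudogene. Nefh lies on chromosome 14 and Map1b on chromosome 2. Nefm overlaps another protein-coding gene, LOC134482139, in that table, whereas no listed gene overlaps the other 3. The library kit keeps the strand, but the strand setting of the counting is not given in the sources used here, so reads of the overlap could have been assigned differently.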

How the data were processed

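RNA-seq was analysed for the 2 CFA libraries, each from 1 rat. The authors deposited raw counts per Ensembl gene, made by aligning reads to rn6 with HISAT2, removing ribosomal RNA and counting with featureCounts. The library kit was strand-specific and poly(A) selected. The 2 count columns were assigned to CFA replicates 1 and 2 by the sample labels. ATAC-seq coverage was not used here, since the positions of these genes on rn6 were not at hand.

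Counts were scaled to the library total (CPM), and log2 ratios used a pseudocount of 1 CPM. Shares carry 95% Wilson intervals and ratios exact binomial intervals, which cover counting error only, since reads carry no molecular identifiers. With 1 group, no test between groups and no p-value was possible. The log2 ratio was tested on simulated counts with a known depth ratio. Alternatives used edgeR 4.0.16 (TMM) and DESeq2 1.42.0 (size factors) in R 4.3.3. Other values came from Python 3.11.15 with numpy 2.4.6, pandas 2.3.3 and scipy 1.17.1, and figures from matplotlib 3.10.9.

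Symbols were paired with 1948 Ensembl genes through the supplementary gene lists of the study. These hold genes that the study selected as changed in both pain models, so the matched part of each list is not a random part. The symbols of the 4 genes came from the same supplementary lists, so the 4 were not set by reads alone. Named genes are the 4 members, genes among the first 20 by mean CPM, the 3 genes nearest to each member, and the members of the lists of filament, microtubule, axon and cell type genes. The minimum of 1000 CPM was set after seeing the data. The 4 genes and the lists were chosen with earlier results of these data known. Ratios per transcript length were planned but not made, since no transcript or coding lengths were at hand.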

Additional observations from a re-analysis of the deposited data

How the results depend on the processing

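Scaling by TMM or by DESeq2 size factors left the mean CPM of all 4 genes within 1 SD of the libraries. With 2 libraries, both scalings raise replicate 2 about as much as they lower replicate 1. The mean can thus hardly move, and its stability is no check. With the reads of the 4 genes left out of the library total, the mean rose to 12031 CPM for Nefm and 10053 CPM for Nefl, beyond their small SD, and stayed within it for Nefh and Map1b. The log2 ratio of replicate 2 to replicate 1 was 0.017 for Nefm, 0.050 for Nefl, 0.22 for Nefh and 0.26 for Map1b by TMM, and 0.018, 0.051, 0.22 and 0.26 by size factors, in the same direction as before but moved by more than their counting error. The agreement of Nefm within counting error was lost under both. These scalings moved the median over all genes by 0.014 and 0.016. A pseudocount of 0.5 CPM, or a library total without the 4 genes, moved none of the 4 log2 ratios by more than their counting error. The SD of the log2 ratio over all genes was 0.19 with at least 100 counts and 0.23 with at least 1 count in both libraries, against 0.22 with at least 10. The share of the 4 genes among genes with at least 10 counts stayed within 1 SD. Ratios between genes from counts summed over both libraries must lie between the ratios of the 2 libraries. Their stay within 1 SD is therefore no check. Leaving out a library leaves the values of the other, as given for each gene above. Ratios per coding length were not run, because no coding lengths were at hand. No paired analysis was possible because RNA-seq of only 1 group was analysed. Counting error was between 0.173% and 0.365% of each level. The spread between the libraries exceeded it for Nefl, Nefh and Map1b, and lay below it for Nefm by library totals.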
